A study of Mus musculus with 32 samples.

Results

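Haem is the iron-holding ring of haemoglobin and the cytochromes. Its handling was followed through 8 mouse genes, taken by gene name from the tables of 4 organs: the scavengers Hpx and Hp, the carriers Slc48a1, Slc46a1 and Flvcr1, the haem-degrading enzyme gene Hmox1, and the synthesis genes Alas1 and Alas2. The groups were male mice that lack Khk (Khk KO) and male wild-type (WT) mice, compared for a question about fructose, ketohexokinase and iron homeostasis. Ketohexokinase, the product of Khk, is the kinase that commits fructose to breakdown in liver and gut. RNA with poly(A) tails from liver and 3 stretches of small intestine, the duodenum, jejunum and ileum, was sequenced in 32 libraries, 4 for each of the 8 groups of organ and genotype. Strain, age, diet and the way in which Khk was deleted are not given in the sources used here. Each organ's table was limited to genes whose unadjusted p in the authors' genotype test was under 0.05, so a gene that is not listed has no level here. All 8 genes were found in at least 1 table, among 10055 genes listed in any. Among 6375 listed genes, liver held 5 of them. Duodenum held 2 of 1567, jejunum 2 of 2413 and ileum 2 of 5187.

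Haem is made by a chain of enzymes that starts in mitochondria with aminolevulinate synthase, the rate-limiting step. Alas1 encodes the form found in most cells, and Alas2 the form of red cell precursors. Haem and haemoglobin that escape into plasma are bound by hemopexin (Hpx) and haptoglobin (Hp), which hepatocytes secrete, and the complexes are taken up by hepatocytes and macrophages. Inside cells, heme oxygenase 1 (Hmox1) opens the ring to release iron, and much of this happens in the macrophages that take up old red cells.

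As a check of the labels, Khk in the Khk KO libraries was at 4.59% (duodenum), 6.65% (ileum), 9.25% (jejunum) and 11.1% (liver) of its WT mean, with no overlap between genotypes in any organ. The reads of the listed genes ranged from 1722220 in a duodenum library to 14331517 in a liver library. The tables hold no reads of other genes, so the full depth is unknown. Of 10 hepatocyte markers 8 were listed in liver, and they summed to 472460 to 565653 normalised counts per library. The normalised count is the read count divided by 1 size factor per library. Of 10 enterocyte markers only 1 was listed in duodenum, Sis, while 3 were listed in jejunum and 4 in ileum. Neutrophil markers were listed in no organ, and pancreas acinar markers once in jejunum and once in ileum. Of 8 smooth muscle markers, 3 were listed in liver (1 called higher by edgeR) and 4 in jejunum. In every organ the Khk KO libraries had higher values for long listed genes than the organ's mean library. The Spearman correlation across listed genes was 0.576 to 0.616 (liver), 0.544 to 0.589 (ileum), 0.297 to 0.482 (jejunum) and 0.141 to 0.378 (duodenum). WT liver libraries 2, 3 and 4 were between -0.635 and -0.618, and WT liver library 1 was at 0.129. Only listed genes with a mean of 10 or more entered. Each had been selected for a genotype difference, so the trend over all genes is unknown. Since this trend moves with genotype, each difference of the 8 genes that could be tested is also given from a fit with the trend taken out, which also takes away whatever the genotype itself did along gene length. In bulk tissue, fewer cells of a type and less RNA per cell cannot be told apart.

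The 11 entries of the 8 genes, out of 32 combinations of gene and organ, were all lower in Khk KO. Listing required a difference, so their number carries no weight. The share of listed genes that were lower in Khk KO was 46.0% (liver), 46.0% (jejunum), 48.7% (ileum) and 57.9% (duodenum). Hpx and Hp were listed in liver and jejunum, and Slc48a1 in liver and ileum. Liver alone listed Slc46a1 and Alas2, duodenum alone Hmox1 and Flvcr1, and ileum alone Alas1. The genotypes did not overlap in 7 entries. These were all 5 in liver, where 30.7% of the listed genes had every Khk KO library below every WT library, Hmox1 in duodenum (26% of listed genes), and Slc48a1 in ileum (29.9% of listed genes). Among only the listed genes that were lower in Khk KO, this held for 1960 of 2933 in liver, 407 of 908 in duodenum and 1551 of 2526 in ileum. A lack of overlap was thus common among lower genes. The share was 23% of the listed genes in jejunum, where both entries overlapped. For each of the 7, an exact two-sided permutation test over the 35 splits of 8 libraries gave p = 0.0286, the smallest that 4 against 4 can give. Groups that do not overlap always give this value, so it adds nothing to the lack of overlap.

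**Figure D1:**
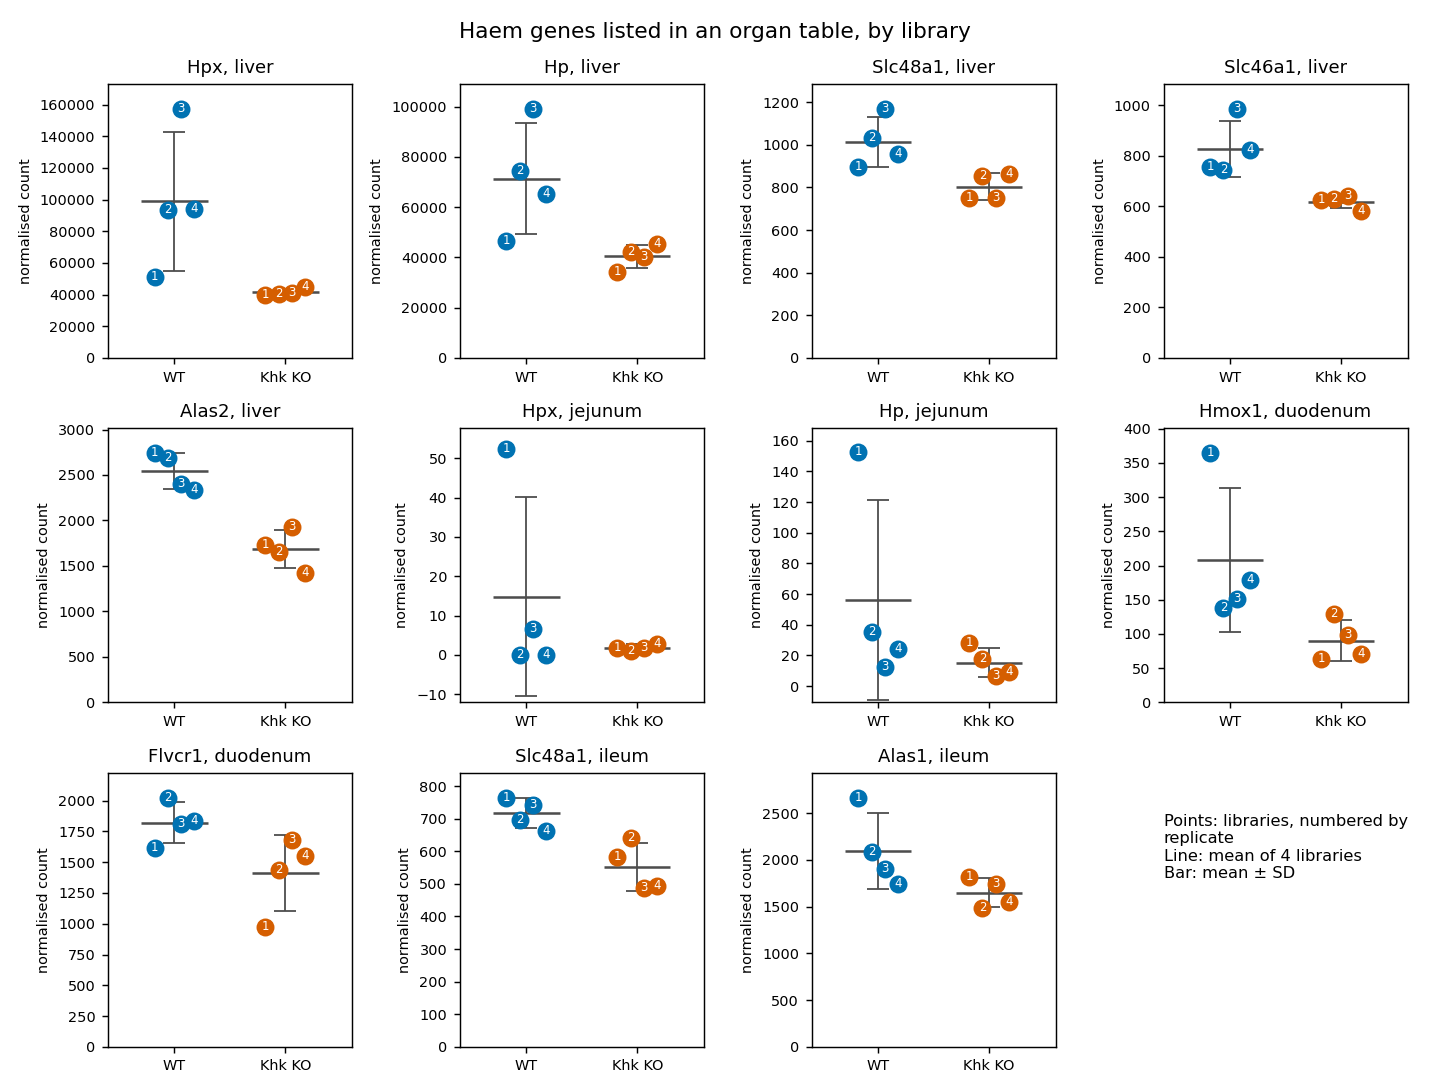
Normalised count of each haem gene in each library of the organ whose table lists it, with WT libraries at the left and Khk KO libraries at the right of each panel, the line at the mean of 4 libraries and the bar at mean ± SD. Every panel has a lower Khk KO mean, the 5 liver panels have no overlap, and the WT means of Hpx and Hp in jejunum and Hmox1 in duodenum rest largely on WT library 1.

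With edgeR's quasi-likelihood test of the read counts, scaled by the authors' size factors, 3 of the 5 liver genes passed an adjusted p of 0.05: Hpx, Hp and Alas2. Of all 18225 liver genes that the authors had adjusted over, 8.09% were called lower by this test. By the authors' deposited values 4 passed, with Slc46a1 added, against 11.4% of genes called lower. Both shares are over all adjusted genes, listed or not. Among the listed liver genes that were lower in Khk KO, the authors called 2081 of 2933. Of 5738 listed liver genes that edgeR tested, 49.6% were lower, and it called 1475 lower. Calls were thus common among lower listed genes. None of the 5 entries that could be tested in the intestine passed, where edgeR called 0.0064% (duodenum), 0.0101% (jejunum) and 3.37% (ileum) of genes lower. An unadjusted p under 0.05 in that test was met by 9 of the 10 tested entries, a threshold the tables themselves had already applied. DESeq2 was run with its own scaling, made from the listed genes. It called 4 of the liver entries, Slc48a1 of ileum, and none of the duodenum and jejunum entries. In the authors' deposited values none of the 8 genes was called in the intestine, where 0.0961% (duodenum), 0.223% (jejunum) and 6.86% (ileum) of genes were called lower.

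Hpx fell in the Khk KO liver to 41.8% of its WT level. The gene (ENSMUSG00000030895) lies on the minus strand at chr7:105591613-105600137 of GRCm38. In the 4 WT liver libraries it had 50806, 93255, 157475 and 94110.0 normalised counts, and in the 4 Khk KO libraries 39799, 40244, 40837 and 44526. The Khk KO libraries lay close together below all WT libraries, WT library 3 was far above the rest and WT library 1 was the nearest to Khk KO. The means were 98912 ± 43965 in WT and 41351 ± 2159 in Khk KO (SD, n = 4). The log2 fold change was -1.26 ± 0.26 (SE), with an adjusted p of 0.0182 in edgeR's quasi-likelihood test and 5.26e-05 in the authors' deposited table. With the length trend taken out it was -0.54 ± 0.17 (SE), and edgeR's adjusted p was 0.118. At the length of Hpx, 1499 bases of exon, the trend itself came to -0.65 (log2, Khk KO less WT). Per length, Hpx was the most abundant of the 5 haem genes in the WT liver, at 5699.8 ± 2596 FPKM (SD, n = 4; fragments scaled to gene length and library depth), followed by Hp at 3834 ± 1226, Alas2 at 90.9 ± 6.404, Slc48a1 at 31.8 ± 4.08 and Slc46a1 at 23.1 ± 3.38. The gap between the Hpx and Hp means was smaller than the SD of Hpx.

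The sequence around the start of Hpx is shown because Hpx had the largest liver difference of the 8 genes in its log2 fold change. RefSeq windows were matched for 5 of the 8 genes, Hpx, Slc46a1, Flvcr1, Alas1 and Alas2, and not for Hp, Hmox1 and Slc48a1. The 250 bases before the RefSeq start of Hpx run 5′ to 3′ over chr7:105600117-105600366 of GRCm38.p6, minus strand. The last 21 of them lie inside an exon annotated in GENCODE M21. Capitals mark matches on either strand to a CCAAT box (CCAAT), an antioxidant response element core (TGANNNNGC), a CACCC box (CCACCC) and a TATA box (TATANAAG).
Hpx: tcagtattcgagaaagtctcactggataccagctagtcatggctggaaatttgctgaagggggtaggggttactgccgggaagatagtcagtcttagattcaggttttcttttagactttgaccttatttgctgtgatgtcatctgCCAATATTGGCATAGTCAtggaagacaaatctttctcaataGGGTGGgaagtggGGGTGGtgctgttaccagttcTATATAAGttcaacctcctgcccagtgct
The TATA match begins 29 bases before the start, the CACCC matches 63 and 50 bases before it, and the CCAAT matches 104 and 99 bases before it, where the second overlaps the antioxidant response match. Among 32851 promoter windows of this length, TATANAAG occurred in 3.24%, CCACCC in 28.1%, CCAAT in 33.8% and TGANNNNGC in 35.2%. CTGGGA, a core of elements that respond to interleukin 6, occurred in 27.0% of windows and was not found in this one.

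Hp, whose product binds free haemoglobin, fell in the Khk KO liver to 56.7% of its WT level. It (ENSMUSG00000031722) lies on the minus strand at chr8:109575128-109579172. The WT liver libraries had 46495, 74585, 99282 and 65157 normalised counts and the Khk KO libraries 34223, 42159.7, 40157 and 45309.6. WT library 1 lay just above the highest Khk KO library, and WT library 3 was again the highest. The means were 71379.7 ± 21960.3 in WT and 40462 ± 4669 in Khk KO (SD, n = 4). This is a log2 fold change of -0.82 ± 0.19 (SE), with an adjusted p of 0.0227 in edgeR's quasi-likelihood test and 0.00127 in the authors' deposited table. It was -0.14 ± 0.12 (SE), adjusted p = 1 by edgeR, with the length trend taken out, and -0.58 ± 0.18 (SE), adjusted p = 0.0576, with a trend on GC content taken out.

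In jejunum the same 2 scavengers were listed at low counts, carried by 1 WT library. Hp had 137, 32, 11 and 23 reads in the WT libraries and 33, 20, 7 and 10 in the Khk KO libraries, or 153, 35.2, 12.3 and 23.9 against 28.3, 17.5, 6.45 and 9.50 normalised counts. WT library 1 stood apart, and the other 3 WT libraries overlapped the Khk KO libraries. For Hp it came to a log2 fold change of -1.85 ± 0.80 (SE), adjusted p = 0.268 by edgeR, and -0.61 without WT library 1. With the length trend taken out it was -1.16 ± 0.66 (SE), adjusted p = 1 by edgeR. The exact two-sided permutation test of Hp in jejunum gave p = 0.171. Hpx had 47, 0, 6 and 0 reads in the WT jejunum libraries and 2, 1, 2 and 3 in the Khk KO libraries. WT libraries 2 and 4 had none, which allows up to 3.30 and 3.12 normalised counts, the level of 3 reads, so Hpx overlapped too and no fold is given. This floor covers counting error only. In the authors' deposited table Hp and Hpx in jejunum had unadjusted p-values of 0.0118 and 0.0359 and were not adjusted. In the same WT library 1, the 3 listed hepatocyte markers, Apoa1, Ttr and Trf, summed to 408389 normalised counts against 157916 to 197341 in the other WT libraries and 125560 to 154298 in the Khk KO libraries. Most of that sum is Apoa1, which enterocytes express as well. Ttr ranged from 52.0 to 79.1 normalised counts over the WT jejunum libraries, and Alb was not listed. The 4 listed smooth muscle markers, Acta2, Des, Actg2 and Cnn1, were lower in Khk KO and uncalled, and their sum was also highest in WT library 1, at 22433 normalised counts against 9428 to 14575 in the other WT libraries and 7709 to 11341 in Khk KO. The part of other cells in these values was not tested. The difference of Hp between jejunum and liver was -1.02 ± 0.74 (SE) on the log2 scale, adjusted p = 0.508 by edgeR's interaction test over 1292 genes listed in both tables.

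Among the carriers, Slc48a1 encodes the transporter that moves haem out of endosomes and lysosomes. It (ENSMUSG00000081534) lies on the plus strand at chr15:97778520-97792692. In liver it had 897, 1031, 1171 and 959 normalised counts in WT and 749, 855, 748 and 863 in Khk KO. The highest Khk KO library was just below the lowest WT library, WT library 1. The liver means were 1015 ± 117 and 804 ± 63.6 (SD, n = 4), the log2 fold change -0.34 ± 0.14 (SE) and the adjusted p 0.130 by edgeR and 0.0727 in the authors' deposited table. In ileum the WT libraries had 765, 697, 743 and 661 normalised counts and the Khk KO libraries 583, 641, 489 and 494. Khk KO library 2 came nearest to the WT libraries, and the groups did not overlap. The ileum means were 717 ± 46.3 and 552 ± 73.6 (SD, n = 4), with a log2 fold change of -0.38 ± 0.12 (SE) and an adjusted p of 0.0737 by edgeR, 0.0455 by DESeq2 and 0.0725 in the authors' deposited table. Neither difference kept its sign with the length trend taken out, where the log2 fold change was 0.13 ± 0.10 (SE) in liver and 0.0039 ± 0.12 (SE) in ileum. In ileum it was also above 0 with the GC trend taken out, at 0.041. The ileum difference less the liver difference was -0.04 ± 0.20 (SE), adjusted p = 0.972 by edgeR's interaction test over 2836 genes. Hdac7, on the other strand, shares 1.05% of the exon bases of Slc48a1.

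Slc46a1, the proton-coupled folate transporter that has also been described as an intestinal haem carrier, was listed in liver and not in the 3 intestinal tables. It (ENSMUSG00000020829) lies on the plus strand at chr11:78465697-78472059. The WT liver libraries had 756, 743, 988 and 824 normalised counts and the Khk KO libraries 623, 629.7, 640.2 and 582. All Khk KO libraries lay below all WT libraries, and WT library 3 was again the highest. The means were 828 ± 112 and 619 ± 25.3 (SD, n = 4), so Khk KO was at 74.8% of WT. Its log2 fold change was -0.42 ± 0.14 (SE), which passed in the authors' deposited table (adjusted p = 0.0231) and with DESeq2 (adjusted p = 0.0306) but not with edgeR (adjusted p = 0.0683). It was -0.03 ± 0.10 (SE) with the length trend taken out. None of the 8 motifs searched was found in the 250 bases before its RefSeq start.

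Flvcr1, which exports haem across the plasma membrane, was listed in duodenum with overlapping genotypes. It (ENSMUSG00000066595) lies on the minus strand at chr1:191005847-191026158. The WT duodenum libraries had 1613, 2024, 1812 and 1834 normalised counts and the Khk KO libraries 975, 1435, 1681 and 1553. Khk KO library 1 was far below the others, and Khk KO library 3 lay above WT library 1. The means were 1821 ± 168 and 1411 ± 307 (SD, n = 4), and the exact two-sided permutation p was 0.0571. The log2 fold change was -0.37 ± 0.17 (SE), with an adjusted p of 0.838 by edgeR and 0.531 in the authors' deposited table. It was -0.23 without Khk KO library 1, -0.27 with TMM scaling and -0.21 with DESeq2. TMM moved the median log2 fold change of all tested duodenum genes from -0.33 to -0.21, and Flvcr1 lay near that median under both scalings. Small differences are not listed, so the median lies among the lower genes, 58.7% of those tested. Lying near it thus carries no weight. With 5177 exon bases Flvcr1 is a long gene, and with the length trend taken out the value was -0.47 ± 0.16 (SE). A230020J21Rik on the other strand shares 15.6% of its exon bases. The files do not state whether reads were counted by strand, so this share, and those given for Slc48a1, Alas1 and Alas2, is uncertain.

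Hmox1, the inducible haem-degrading enzyme, was at 43.4% of its WT level in the Khk KO duodenum and was not listed in liver, jejunum or ileum. It (ENSMUSG00000005413) lies on the plus strand at chr8:75093621-75100589. The WT libraries had 364, 139, 151 and 179 normalised counts and the Khk KO libraries 63.4, 129, 97.9 and 70.7. The groups did not overlap, but WT library 1 stood well above all the others and WT library 2 lay just above Khk KO library 2. The means were 208 ± 105 and 90.3 ± 29.98 (SD, n = 4). The log2 fold change was -1.20 ± 0.36 (SE), with an adjusted p of 0.838 by edgeR, 0.246 by DESeq2 and 0.130 in the authors' deposited table. It was -0.78 without WT library 1, -1.05 with TMM scaling and -0.76 ± 0.24 (SE) with the length trend taken out. Of 12 macrophage markers 3 were listed in duodenum, Adgre1, Cd5l and Marco, and they summed to 118 to 200.04 normalised counts in WT and 210.2 to 222 in Khk KO. Adgre1 had 69.0 normalised counts in WT library 1, the lowest of all 8 libraries. Cd5l and Marco were highest in that same library, where Hmox1 was highest, at 30.9 and 18.5. In the other 7 libraries they reached at most 4.33. WT library 1 of the duodenum also had the highest Apoa1, 482625 normalised counts against 167385 to 249121 in the other WT libraries. Its part in the level of Hmox1 was not tested.

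Alas2 fell in the Khk KO liver to 66.3% of WT and had the smallest spread among WT libraries of the 3 called genes. It (ENSMUSG00000025270) lies on the plus strand at chrX:150547375-150570638. The WT liver libraries had 2738, 2684, 2406 and 2335 normalised counts and the Khk KO libraries 1731, 1656, 1927 and 1426. The gap between the highest Khk KO and the lowest WT library was clear, and WT library 1 was here the highest of all. The means were 2541 ± 200.01 and 1685 ± 207 (SD, n = 4). For Alas2 the log2 fold change came to -0.59 ± 0.13 (SE), with an adjusted p of 0.0205 in edgeR's quasi-likelihood test and 5.06e-04 in the authors' deposited table. It was -0.63 ± 0.13 (SE), adjusted p = 0.0160 by edgeR, with the GC trend taken out, and -0.09 ± 0.15 (SE), adjusted p = 1, with the length trend taken out. Apex2 on the other strand shares 12.9% of its exon bases and Mir3620 2.54%.

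The sequence before the RefSeq start of Alas2 is shown since Alas2 is an erythroid gene by textbook knowledge and its level did not follow the globins below. The stretch is 238 bases of chrX:150547167-150547404 of GRCm38.p6, plus strand, from the RefSeq window, and its last 30 bases lie inside an exon annotated in GENCODE M21. Capitals mark a match to a GATA core (GATAA, here on the opposite strand as TTATC) and overlapping matches to the CACCC box (CCACCC, on the opposite strand).
Alas2: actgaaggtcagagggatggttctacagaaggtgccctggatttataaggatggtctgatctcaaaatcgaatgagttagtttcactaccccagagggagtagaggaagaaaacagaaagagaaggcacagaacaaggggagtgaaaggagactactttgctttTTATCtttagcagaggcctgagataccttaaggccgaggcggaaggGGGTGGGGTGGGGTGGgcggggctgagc
The GATA match begins 86 bases before the RefSeq start and the CACCC matches 40, 35 and 30 bases before it. The CACCC matches lie inside the annotated exon, and the GATA match lies before it. GATAA occurred in 22.6% of the 32851 windows and CCACCC in 28.1%. A CTGGGA match begins 6 bases before the start, beyond the stretch printed.

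Alas1, the general form of the enzyme, was listed in ileum alone. It (ENSMUSG00000032786) lies on the minus strand at chr9:106233455-106248654. The WT ileum libraries had 2665, 2084, 1897 and 1738 normalised counts and the Khk KO libraries 1817, 1488, 1738 and 1545. WT library 1 was the highest, and the Khk KO libraries 1 and 3 overlapped the lower WT libraries. The means were 2096 ± 405 and 1647 ± 156 (SD, n = 4), and the exact two-sided permutation p was 0.0571. The log2 fold change was -0.35 ± 0.14 (SE), with an adjusted p of 0.135 by edgeR and 0.139 in the authors' deposited table, and -0.21 without WT library 1. Alas1 is the longest of the 8 genes, with 6174 exon bases. With the length trend taken out the value was -0.64 ± 0.13 (SE), adjusted p = 0.0296 by edgeR, against 1.52% of ileum genes called lower in that fit. With the GC trend taken out it was -0.05 ± 0.10 (SE). Among the 8 genes Alas1 was the 1 entry called with the length trend taken out. 4930500F10Rik on the other strand shares 7.53% of its exon bases.

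Alas1 has 2 RefSeq windows, and 1 of them held the palindrome bound by nuclear respiratory factor 1, a regulator of genes of mitochondrial metabolism. It occurred in 0.782% of the 32851 windows and in no window of the other 4 genes matched. The 30 bases around it, chr9:106247906-106247935 of GRCm38.p6 on the minus strand, carry it in capitals.
Alas1: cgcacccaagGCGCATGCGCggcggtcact
The match begins 195 bases before that RefSeq start. It lies inside the annotated span of Alas1 given above, and its overlap with annotated exons was not examined.

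Within the liver, WT library 1 separated Alas2 from Hpx, Hp and Slc48a1. Its Hpx, Hp and Slc48a1 levels were the lowest of the WT libraries. Its Alas2 level was the highest, at 2738 normalised counts against 2684 in WT library 2. Slc46a1 was lowest in WT library 2, at 743 against 756 in WT library 1. The 4 globin genes summed to 1845 normalised counts in WT library 1, to 5370, 8553 and 5515 in the other WT libraries and to 1541 to 1784 in the Khk KO libraries. Their separate values are uncertain, since globin copies are nearly identical. Besides the globins and Alas2, Ank1 was the only 1 of the 13 erythroid markers listed in liver. It was higher in Khk KO, at a log2 fold change of 4.82 (adjusted p = 0.0850 in the authors' deposited table). Ank1 had no reads in the 4 WT libraries or in Khk KO libraries 1 and 3, so this fold rests on few reads. In Khk KO libraries 2 and 4 the globins summed to 1653 and 1541 normalised counts, and to 1662 and 1552 with Ank1 added. The edgeR filter on low counts left Ank1 out. Of 12 macrophage and Kupffer cell markers 6 were listed, Clec4f, C1qa, C1qb, C1qc, Cd5l and Vsig4. They summed to 4285 normalised counts in WT library 1, to 7507, 11846 and 8641 in the other WT libraries and to 3360 to 5086 in the Khk KO libraries. The summed hepatocyte markers were at 488645, 528191, 565653 and 506309 in WT libraries 1 to 4 and from 472460 to 488448 in Khk KO. This sum hides a split, since 6 of the 8 markers were lower in Khk KO and 2, Apob and Cps1, were higher. Apob went from 56780 ± 35662 in WT to 134972 ± 7112 in Khk KO (SD, n = 4). Library 1 was the lowest and library 3 the highest WT library for the sums of globins, macrophage markers and hepatocyte markers, as for Hpx and Hp. The part of these cells in the differences of Hpx and Hp was not tested. After the genotype means were subtracted, the Pearson correlation over the 8 liver libraries was 0.943 for Hpx with Hp, 0.912 for Hp with Slc48a1, 0.805 for Hpx with Slc48a1 and 0.740 for Hpx with Slc46a1. That of Alas2 with these 4 lay between -0.584 and -0.122. The libraries share their length trend in these values.

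**Figure D2:**
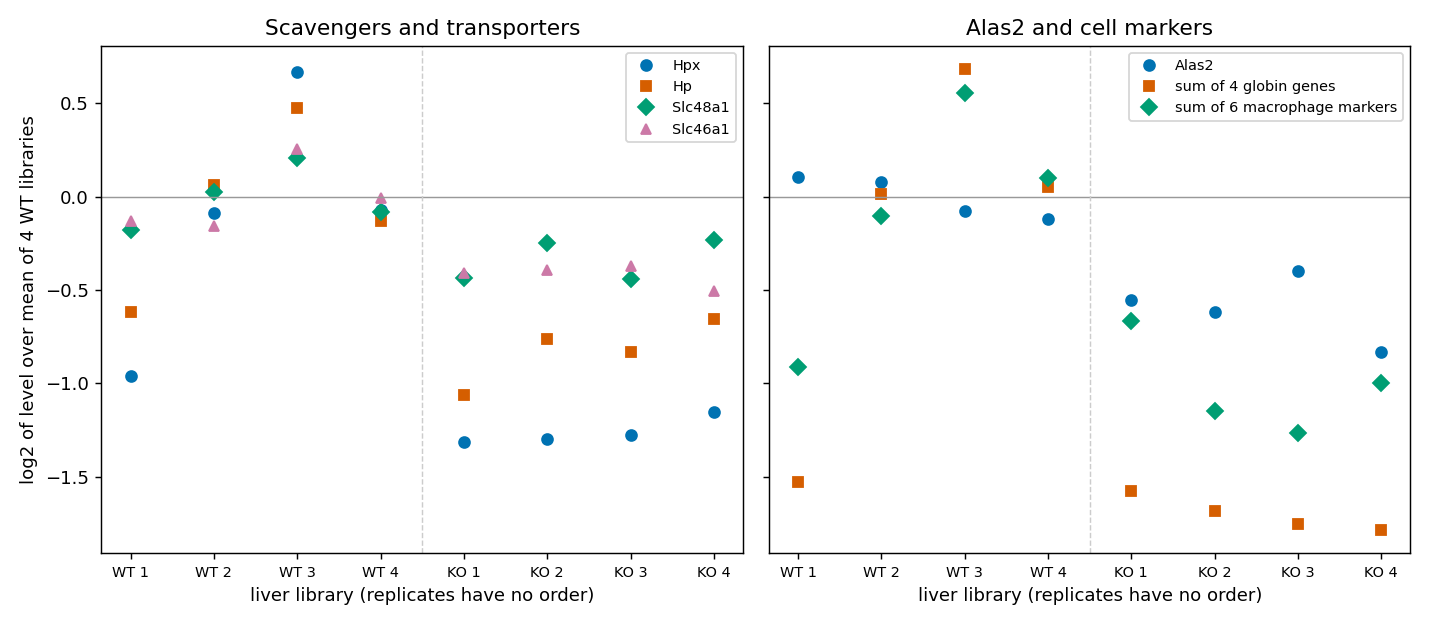
Level of haem genes (left) and of Alas2 with summed globin and macrophage markers (right) in each liver library, as log2 of the level over the mean of the 4 WT libraries. WT library 1 lies low for Hpx, Hp, the globins and the macrophage markers, at or near the Khk KO libraries, while Alas2 is highest there.

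The number of haem genes called in liver depended on single libraries, as did the calls over all liver genes. It was 3 with all 8 libraries, 5 without WT library 1, and 3 without WT library 3. Leaving out Khk KO library 3 left 1, and leaving out any of Khk KO libraries 1, 2 and 4 or WT libraries 2 and 4 left 0. Over all liver genes edgeR called 1475 lower with all libraries, 2417 without WT library 1, 1153 without WT library 3, 284 without Khk KO library 3 and 2 to 160 in the 5 settings that left 0. The adjusted p-values that edgeR then gave lay between 0.0503 and 0.0679 for Hpx, 0.0530 and 0.0708 for Hp, and 0.0521 and 0.0730 for Alas2, with 7 libraries in the fit. The log2 fold changes ranged from -1.47 to -0.94 for Hpx, from -0.98 to -0.62 for Hp and from -0.66 to -0.52 for Alas2. No entry changed sign when a library was left out. The highest values, nearest to 0, came without WT library 3 for Hpx and Hp and without Khk KO library 4 for Alas2.

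Short and long haem genes moved in opposite ways when the length trend was taken out. In liver the fit moved the median log2 fold change of all tested genes from 0.30 to 0.0016, and all 5 haem genes there have between 1499 and 3080 exon bases. Each of them came closer to 0 or crossed it, and 0 of the 5 stayed called, against 2.13% of liver genes called lower in that fit. Flvcr1 and Alas1, with the most exon bases of the 8, moved away from 0. In duodenum (0.0064% of genes called lower) and jejunum (0.0101%) none was called in that fit. Taking out GC content left Hpx and Alas2 called in liver.

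**Figure D3:**
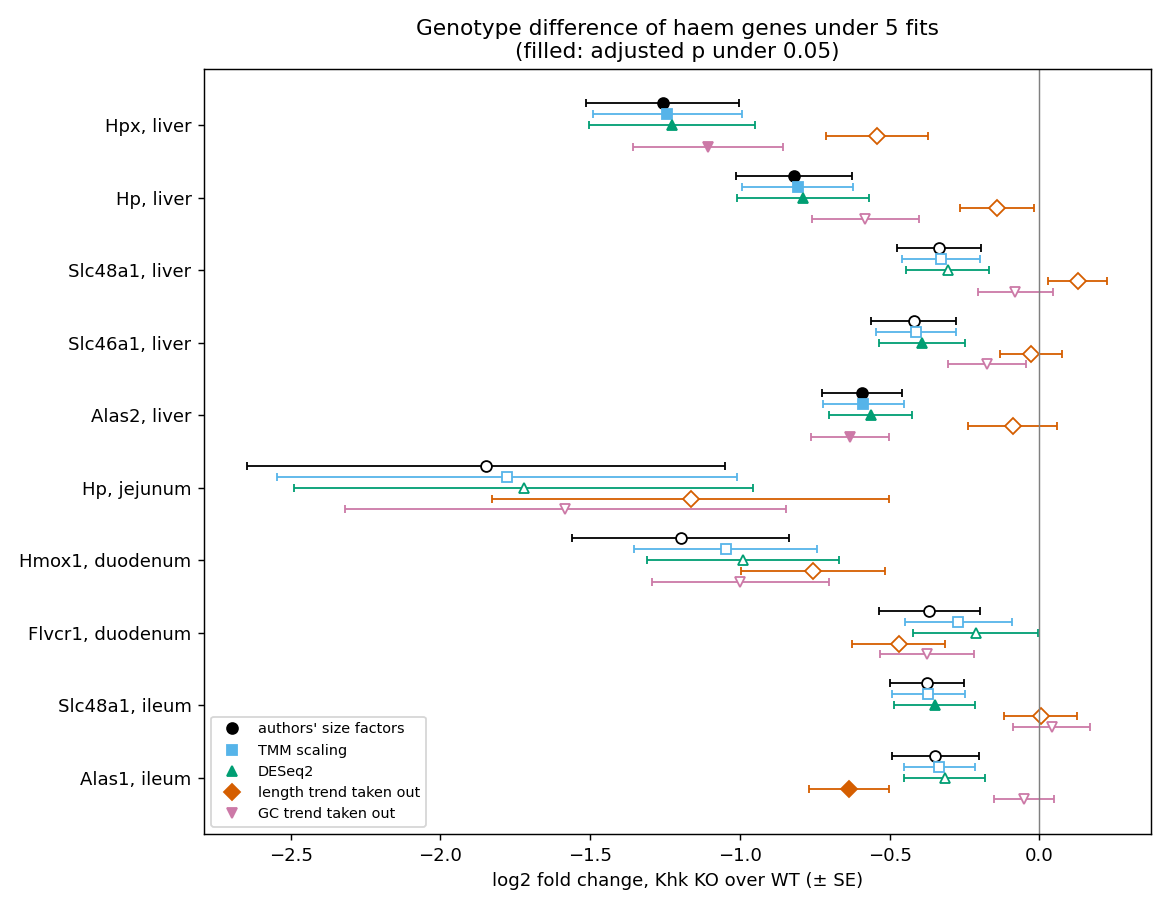
Log2 fold change (± SE), Khk KO over WT, for the 10 tested entries under 5 fits, with filled symbols at an adjusted p under 0.05. The liver genes move toward 0 with the length trend taken out, Slc48a1 crosses 0, and Alas1 in ileum moves to -0.64.

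Other genes of the haem pathway were taken from 5 lists of 41 genes in all. In liver 17 were listed, 5 higher and 12 lower in Khk KO. Of these, edgeR called 3 higher and 8 lower, while in the deposited test of the authors 5 were higher and 9 lower at that threshold. Their median log2 fold change was -0.47, beside 0.42 for all listed liver genes. Small differences are not listed, so such a median moves strongly with the share of lower genes, 46.0% over all listed liver genes. Over all 5738 tested liver genes edgeR called 1332 higher and 1475 lower. Among 3 listed synthesis genes, Urod, which trims the side chains of the new ring, fell from 1614 ± 389 to 1061 ± 59.1 normalised counts (SD, n = 4; log2 fold change -0.61, adjusted p = 0.0355 by edgeR). Alad was at -0.42, adjusted p = 0.0697 by edgeR. Uros was at -0.47, adjusted p = 0.173 by edgeR. None of the 3 passed once the length trend was taken out, where Urod was at -0.097, Uros at -0.21 and Alad at 0.19.

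Carriers went both ways in liver. Slc25a37, mitoferrin 1, which brings iron into mitochondria, rose from 703 ± 132 to 1426 ± 193 normalised counts (SD, n = 4; log2 fold change 1.02, adjusted p = 0.0159 by edgeR). It was still called at 0.66, adjusted p = 0.0177 by edgeR, with the length trend taken out, the only 1 of the 17 genes to be so. Tmem14c, a porphyrin carrier of mitochondria, Pgrmc1, a haem-binding membrane protein, and Slc25a39, a mitochondrial carrier, fell, with log2 fold changes of -0.74, -0.53 and -0.40. The biliverdin reductases Blvra and Blvrb, which act after heme oxygenase, fell too, at -0.84 and -0.73. For clearance, Ambp, whose product alpha-1-microglobulin binds haem, fell by 0.55, and Lrp1, the receptor for hemopexin with haem, rose by 1.25. Lrp1 is a very long gene, and with the length trend taken out it was at 0.35, adjusted p = 0.703 by edgeR. Of the regulators, Ppargc1a, a coactivator that induces Alas1 in fasting, rose by 1.04 and Hpn, a hepatocyte membrane protease, fell by 0.48. Bach1, the haem-sensing repressor of Hmox1, was at 0.50 (adjusted p = 0.0636 by edgeR) and Ppargc1b at 0.91 (adjusted p = 0.0760 by edgeR). With the length trend taken out, Tmem14c, Pgrmc1, Slc25a39 and Ambp crossed to between 0.0032 and 0.12, Blvra, Blvrb and Hpn were at -0.29, -0.25 and -0.37, and Ppargc1a was at 0.56, none of them called.

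In ileum 15 of the 41 were listed, 5 higher and 10 lower, with a median log2 fold change of -0.37 beside 0.30 for all listed genes. This median too moves strongly with the share of lower genes, 48.7% over all listed ileum genes. Of the 15, edgeR called 1 higher and 5 lower, beside 1045 higher and 540 lower of 4788 tested ileum genes. Urod fell from 548 ± 70.6 to 369 ± 3.28 normalised counts and Alad from 712 ± 70.7 to 503 ± 34.5 (SD, n = 4), with adjusted p-values of 0.0191 and 0.0264 by edgeR. Blvrb, Tmem14c and Blvra fell as well, with log2 fold changes of -0.77, -0.55 and -0.42. With the length trend taken out none of these 5 was called, at -0.16 for Urod, -0.018 for Alad, -0.40 for Blvrb, 0.048 for Tmem14c and -0.0024 for Blvra. Nr1d2, which encodes the haem-binding clock repressor REV-ERB beta, rose from 1386 ± 205 to 2538 ± 232 normalised counts (SD, n = 4; log2 fold change 0.87, adjusted p = 0.00698 by edgeR), and at 0.71 it was called with the length trend taken out as well. Keap1, which holds NRF2 in check, was at -0.36 (adjusted p = 0.0507 by edgeR) and at -0.39 (adjusted p = 0.0381) with that trend taken out. Tfeb, outside the rule for named genes and picked after its values were seen, was at -0.37 and -0.58, and the second was called. In duodenum 5 were listed and edgeR called 0, while the authors' deposited table called Nr1d1, the related gene, at 0.80 (adjusted p = 0.00195). In jejunum 5 were listed and 0 called by either.

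**Figure D4:**
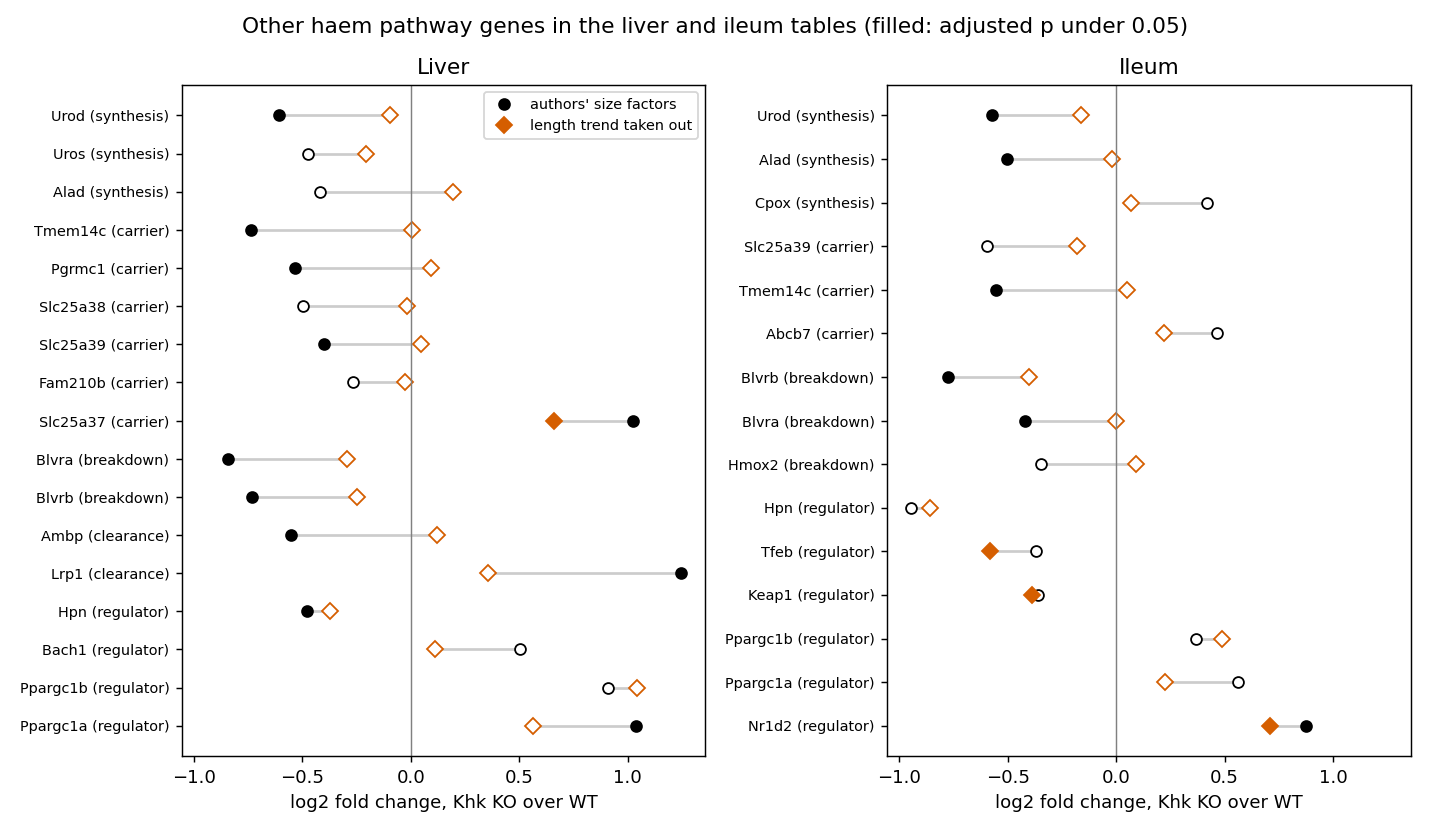
Log2 fold change, Khk KO over WT, for the listed haem pathway genes in liver (17 genes) and ileum (15 genes), by edgeR with the authors' size factors (circles) and with the length trend taken out (diamonds), filled at an adjusted p under 0.05. Most circles lie left of 0, most diamonds lie nearer to 0, and Slc25a37 in liver and Nr1d2 in ileum are filled in both fits.

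The genes most like each haem gene were ranked by the Pearson correlation over the 8 libraries of an organ after the genotype means were subtracted. For Hpx in liver these were Rnh1 (0.995), Rps27l (0.995) and Blvrb (0.994), for Hp Pih1d1, Apof and Itih4 (all 0.990), for Slc48a1 Ak6 (0.971), and for Slc46a1 Uox (0.988). The 95th percentile over 4566 candidate genes was 0.951 for Hpx, so many genes varied in the same way. For Alas2 it was 0.527, and its nearest genes were Igfals (0.926), Dhrs3 (0.918) and Lama4 (0.915). Snrpc (0.961) was nearest to Hmox1 and Slc5a4b (0.908) to Flvcr1 in duodenum. Enpp2 (0.971) was nearest to Hp in jejunum. In ileum these were Ddx41 (0.890) for Slc48a1 and 1700021F05Rik (0.994) for Alas1. These values describe 8 libraries each, which share depth and the length trend.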

How the data were processed

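Poly(A) RNA of liver, duodenum, jejunum and ileum from male Khk KO and WT mice was sequenced, 4 libraries per group, and groups were taken from the sample titles. Per the file headers, the authors' table for each organ holds raw read counts, a normalised signal (the count divided by 1 size factor per library), FPKM, a log2 fold change (Khk KO over WT), and a p-value with its adjusted value. HISAT2 2.0.5 and GRCm38 (mm10) are named per the submitters' processing notes. The counting tool, annotation, strand setting and test are not given in the sources used here. Per the labels, both directional and non-directional library chemistry are possible. Every gene in the deposited tables has an unadjusted p-value under 0.05, and the adjusted values fit an adjustment over 18225 (liver), 15615 (duodenum), 9881 (jejunum) and 16034 (ileum) genes. A deposited adjusted value of exactly 1 was read as not adjusted.

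The deposited counts of each organ were fitted with edgeR 4.0.16 in R 4.3.3 (filterByExpr, quasi-likelihood F test). The authors' size factors set the scaling, because TMM would rest on the selected genes. P-values were adjusted by Benjamini and Hochberg over those same gene numbers, and called under 0.05. The genes of the fit had passed a test on the same libraries, so its p-values are not independent of that choice. The SE is the log2 fold change divided by the square root of F. The length and GC trends were lowess curves (span 0.5) of log2 of the normalised count plus 1, entered as offsets. They were drawn over listed genes whose mean reached 10. Library totals and full depth are unknown. DESeq2 1.42.0, TMM scaling, no filter, a replicate block, adjustment over the genes of the table and leaving out each library were the alternatives. DESeq2 made its own size factors from the selected genes, so it differs from the main fit in scaling as well as in test. Scripts were tested on simulated data. The rest used Python 3.11.15 with scipy 1.17.1, pandas 2.3.3, numpy 2.4.6 and matplotlib 3.10.9.

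Nothing in the labels says that libraries of a group are separate animals, or that organs came from the same mice, so p-values measure the spread between these libraries. All 8 genes are reported wherever listed. From each of 7 pathway lists up to 4 genes per organ past the authors' threshold are named, by smallest p, and for each haem gene the 3 genes of highest correlation, protein-coding and with a mean of 100 or more. Not every gene selected is printed, and 1 gene of the lists is not reported here. The 7 marker lists cover hepatocytes, enterocytes, erythroid cells, macrophages, neutrophils, pancreas acinar cells and smooth muscle. The members and lists were chosen with earlier results of these data known, and the motifs after the tables were seen. Positions of the 8 genes equal those of GENCODE M21, and promoter sequences are from RefSeq (GRCm38.p6).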

Additional observations from a re-analysis of the deposited data

Results flagged for a closer look

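In the WT jejunum libraries, library 1 stood apart from the other 3 for both scavenger genes by Dixon's test of an extreme value. Hp was at 153 normalised counts there, against a mean of 23.8 in the other 3 WT libraries, and Hpx was at 52.5 against 2.23. They were 2 of the 22 groups of 4 libraries tested, both for the same library. These genes were listed for a genotype difference in the same libraries, so the usual chance of about 1 in 20 does not apply. Without this library the log2 fold change of Hp in jejunum was -0.61.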

How the results depend on the processing

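The count of called haem genes in liver was 3 with the authors' size factors, TMM scaling, no filter or the replicate block, 4 with DESeq2, 2 with the GC trend taken out, 0 with the length trend taken out and 5 when adjusted over the genes of the table, and it ranged from 0 to 5 when 1 library was left out. In ileum it was 0, but 1 with DESeq2, 1 with the length trend taken out and 2 when adjusted over the genes of the table, and 0 without any library. In duodenum and jejunum it was 0 under every alternative run. When adjusted over the genes of the table, edgeR called 5290 of 5738 tested liver genes and 4565 of 4788 tested ileum genes. Listing had already required an unadjusted p under 0.05, so the calls gained under that adjustment carry no weight. Slc48a1 changed sign with the length trend taken out, to 0.13 in liver and 0.0039 in ileum, and in ileum also without the GC trend, to 0.041, and the cause was not tested. Of 150 alternatives for the 10 tested entries 117 kept direction and call, 21 lost the call, 9 gained it and 3 reversed. Hpx in jejunum, which the filter left out, had an adjusted p of 0.279 by edgeR with no filter and 0.279 by DESeq2. Over all genes edgeR called 2807 in liver, 1585 in ileum and 1 each in duodenum and jejunum. These counts were 4411, 3520, 37 and 347 with DESeq2, 785 in liver and 476 in ileum with the length trend taken out, 923 with the GC trend taken out of the ileum, and 19 to 4893 in liver and 452 to 2579 in ileum with a library left out. The ileum calls split into 1045 higher and 540 lower, 1191 and 1069 with TMM scaling, 232 and 244 with the length trend taken out and 420 and 503 with the GC trend taken out.

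Replicate numbers recur in both genotypes. Libraries with the same number had correlated deviations of -0.0962 to 0.0646 (liver), -0.269 to 0.225 (duodenum), 0.0501 to 0.312 (jejunum) and -0.156 to -0.0107 (ileum), so in no organ were all 4 above 0.1 and the numbers were not taken as pairs. With the replicate block 3 haem genes were called in liver and 0 in each intestinal organ, and over all genes 2266 in liver, 471 in ileum and 0 in duodenum and in jejunum.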

Other observations

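Hp and Hpx belong to the acute phase proteins, which the liver secretes in inflammation. Most listed liver genes from a wider list of acute phase genes were lower as well before the length trend was taken out. That list was not split into genes that rise and genes that fall in inflammation. It also holds Ttr and the receptor gene Il6ra, so its counts do not describe genes of 1 kind. Of 26 on the list 15 were listed in liver, 3 higher and 12 lower in Khk KO, with a median log2 fold change of -0.43 beside 0.42 for all listed liver genes. Small differences are not listed, so this median moves strongly with the share of lower genes. Of the 15, edgeR called 0 higher and 7 lower, beside 1332 higher and 1475 lower of 5738 tested liver genes. The authors' deposited values had 2 of the 15 higher and 10 lower. Serum amyloid genes were the furthest down. Saa1 fell from 3588 ± 2510.0 to 607 ± 187 normalised counts and Saa2 from 978 ± 754 to 128 ± 55.5 (SD, n = 4), with log2 fold changes of -2.56 and -2.93 and adjusted p-values of 0.0225 and 0.0205 by edgeR. The lowest WT library had 375 for Saa1 and 99.6 for Saa2, within the Khk KO range of 369 to 826 and 65.4 to 191. Near-identical copies make their separate values uncertain. Ttr fell from 104344 ± 9894 to 74092 ± 1590.4 and Orm1 from 13604 ± 3116 to 8036 ± 1078 normalised counts (SD, n = 4; adjusted p = 0.0176 and 0.0193 by edgeR). With the length trend taken out 8 of the 15 were below 0 and 7 above, and 1 was called lower, Cp, which was at 0.26 before and -0.50 after and was picked after its values were seen. None of these 4 passed in that fit, at -1.99 for Saa1, -2.36 for Saa2, 0.18 for Ttr and 0.0049 for Orm1. Of acute phase genes, 1 was listed in duodenum, 1 in jejunum and 2 in ileum, and 0 were called there.

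Targets of NRF2, the transcription factor that also induces Hmox1, moved apart from each other in liver, where 3 of 10 were listed. Gclc, the catalytic subunit of glutathione synthesis, rose from 4199 ± 467 to 6309 ± 446 normalised counts (SD, n = 4; log2 fold change 0.59, adjusted p = 0.0186 by edgeR) and stayed called, at 0.78, with the length trend taken out. Me1, malic enzyme, and Nqo1, a quinone reductase, fell (log2 fold changes -0.70 and -0.91) and were not called with the trend taken out. In ileum G6pdx was called in the authors' deposited table, at -0.46 with an adjusted p of 0.0311, and not by edgeR (adjusted p = 0.0538).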
